A study of Mus musculus with 4 samples.

Results

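The genes described here carry aldosterone-responsive sodium absorption in the distal gut: the 3 subunits of the epithelial sodium channel ENaC (Scnn1a, Scnn1b, Scnn1g), the channel-cleaving protease prostasin (Prss8), the mineralocorticoid receptor (Nr3c2) with its guarding enzyme Hsd11b2, the kinase Sgk1, the ubiquitin ligase Nedd4l and the sodium pump subunit Atp1b1. They were chosen by name, as all transcript rows carrying 1 of these 9 gene symbols, and made up 9 of the 55203 genes and 75 of the 141738 transcripts measured. A gene's level was the sum over its transcripts of FPKM, the number of sequenced fragments normalised to transcript length and library size, with the 4 libraries brought to a common scale. Because FPKM is divided by transcript length, levels of different genes can be set side by side.

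The study is a bulk RNA-seq companion to an imaging atlas of the mouse gut, and its 4 libraries came from wild-type adult male C57BL/6NTac mice kept specific-pathogen-free (SPF). For 2 libraries the tissue was rinsed with an RNase inhibitor, ribonucleoside vanadyl complex (RVC) at 4 mM, and 2 libraries are labelled fresh frozen. Ribosomal RNA was depleted and libraries were sequenced as read pairs. No hormone, diet or genotype was varied, so the comparison open to these data is between the RVC and fresh frozen tissue, beside the levels themselves. One protocol text, which describes an RVC rinse, is attached to all 4 libraries, so how the fresh frozen tissue was handled is known from its label alone. Since every library was given a different batch number, the effects of batch and of group cannot be told apart. The labels do not say whether the libraries came from separate mice, and the p-values measure only the spread between these samples, which may be technical.

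The labels name the tissue ileum, whereas the protocol names distal colon. All 9 distal colon marker genes examined averaged at least 1 FPKM, with a summed level of 8038 to 11871 FPKM over the libraries. Only 3 of 9 ileum markers did so, with a summed level of 7.36 to 9.81 FPKM, and Fgf15, Apoa4, Defa17, Defa22 and Reg3b were listed at 0 in every library. A list of 7 kidney collecting duct and tubule markers, included because this pathway is best known from the kidney, had no gene averaging 1 FPKM, and Aqp2 and Umod were listed at 0 in every library. Relative sequencing depth ran from 72.6% to 100% of the deepest library.

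Aldosterone enters absorptive cells and binds the mineralocorticoid receptor, a nuclear receptor that moves to DNA and raises transcription of target genes. Glucocorticoids bind the same receptor and circulate in large excess, and Hsd11b2 inactivates them inside the cell so that aldosterone can act. Among the receptor's best-known early targets is Sgk1, a kinase that phosphorylates Nedd4l and so keeps this ligase from removing ENaC from the apical membrane. Sodium enters through ENaC and leaves through the basolateral sodium pump, and in the distal colon surface colonocytes do this work, saving salt from the stool.

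The receptor gene Nr3c2 (ENSMUSG00000031618, GRCm39 chr8:77626070-77971641, plus strand) was measured at 89.98 and 79.95 FPKM in RVC libraries 1 and 2 and at 73.7 and 68.3 FPKM in fresh frozen libraries 1 and 2. Both RVC libraries lay above both fresh frozen libraries. The mean over all libraries was 78.0 ± 9.29 FPKM (SD, n = 4), a level above that of 94.5% of the genes tested. On the log2(FPKM + 1) scale the RVC minus fresh frozen difference was 0.25 (SE 0.11, 95% interval -0.014 to 0.52), with an adjusted p of 0.288 (limma, Benjamini-Hochberg over 13771 genes), so the difference did not pass the threshold of 0.05.

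The sum for Nr3c2 hid unlike transcripts. The most abundant one, ENSMUST00000109912, held 54.9% of the gene's level and ran the other way, at 40.7 and 40.3 FPKM in the RVC libraries and 43.1 and 47.2 FPKM in the fresh frozen ones. The groups did not overlap, and its log2 difference was -0.15 (limma adjusted p = 0.521). All other Nr3c2 transcripts together came to 49.3 and 39.7 FPKM with RVC and to 30.7 and 21.2 FPKM in fresh frozen tissue. The excess of the gene sum in the RVC libraries therefore lay in these other transcripts. Among them the protein-coding ENSMUST00000034031, with 10.1% of the level, was at 11.9 and 12.1 FPKM against 4.17 and 3.38 FPKM. Its log2 difference of 1.45 had an adjusted p of 0.126 (limma, Benjamini-Hochberg over 24174 transcripts), the lowest of any transcript of the 9 genes. ENSMUST00000128862, with 16.2% of the level, was at 15.2, 13.1, 12.6 and 9.52 FPKM in the order RVC 1, RVC 2, fresh frozen 1 and fresh frozen 2, without overlap. A transcript annotated for nonsense-mediated decay, ENSMUST00000148106, named here after its values were seen, was at 11.7 and 7.74 FPKM with RVC and at 3.92 and 0.00925 FPKM in fresh frozen tissue (log2 difference 2.24, limma adjusted p = 0.292). Cufflinks divides reads among overlapping transcripts by likelihood, so such shares are estimates.

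Hsd11b2 (ENSMUSG00000031891, chr8:106245387-106250620, plus strand) protects the receptor by turning corticosterone, the main mouse glucocorticoid, into an inactive form. It was listed with a single transcript and measured at 101.7 and 89.1 FPKM with RVC and at 83.4 and 109.6 FPKM in fresh frozen tissue. The RVC libraries lay inside the range of the fresh frozen ones, which held both the highest and the lowest value. The mean was 95.95 ± 11.9 FPKM (SD, n = 4), and the log2 difference was -0.006 (95% interval -0.37 to 0.35, limma adjusted p = 0.988). The deposited 95% bounds of the estimates, from 81.6 to 87.3 FPKM in fresh frozen library 1 and from 106 to 112 FPKM in fresh frozen library 2, were narrower than the spread between these libraries.

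Against Hsd11b1, which catalyses the reverse reaction and regenerates active glucocorticoid, Hsd11b2 was 96.5, 43.7, 69.6 and 127 times as high in RVC 1, RVC 2, fresh frozen 1 and fresh frozen 2. Hsd11b1 itself was close to the 1 FPKM minimum for testing, at 0.860 to 2.04 FPKM. The mineralocorticoid receptor exceeded the glucocorticoid receptor Nr3c1 in every library, by 4.93, 4.35, 3.91 and 3.42 times in the same order. Nr3c1 was nearly level, at 18.3 to 19.98 FPKM. Hsd11b2 stood at 1.13, 1.11 and 1.13 times the level of Nr3c2 in 3 libraries and at 1.604 times in fresh frozen library 2. These partner genes were paired with the members after their values were seen.

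**Figure D1:**
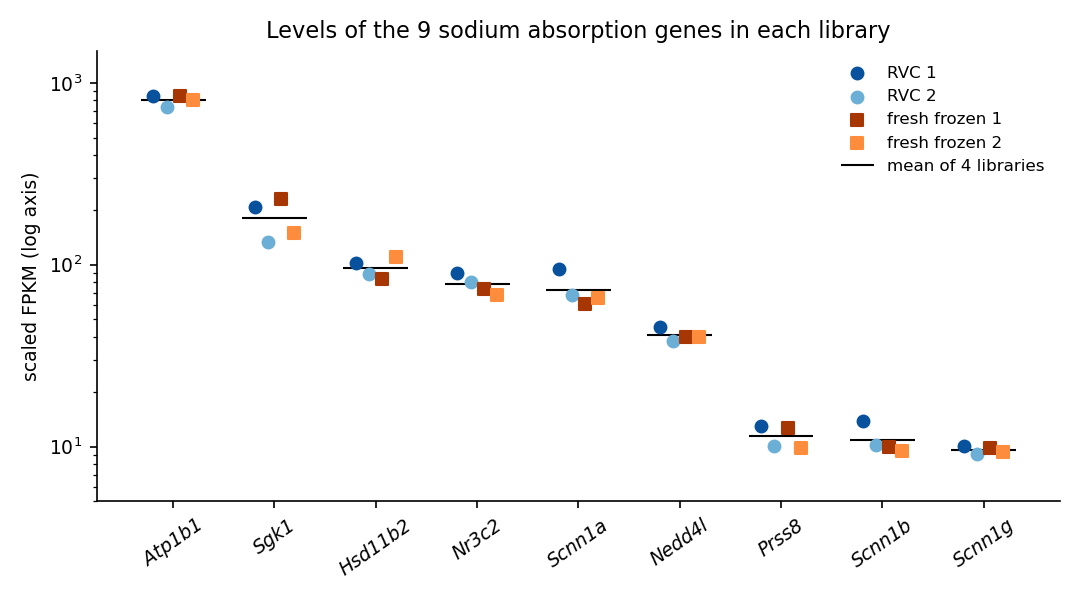
Level of each of the 9 genes in each library, in scaled FPKM on a log axis, with 1 point per library and a bar at the mean of the 4. The genes span from Scnn1g at 9.57 FPKM to Atp1b1 at 805.6 FPKM, and the libraries of a gene lie close together beside that range.

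Sgk1 (ENSMUSG00000019970, chr10:21758083-21875802, plus strand), the kinase that relays the hormone signal to the channel, was measured at 208.6 FPKM in RVC library 1, 132.9 FPKM in RVC library 2, 230.5 FPKM in fresh frozen library 1 and 149.1 FPKM in fresh frozen library 2. The groups overlapped, and the spread inside each group was larger than the gap between the group means. The mean of 180.3 FPKM had an SD of 46.7 (n = 4), or 25.9% of the mean. The log2 difference between groups was -0.15 (SE 0.26, 95% interval -0.76 to 0.46, limma adjusted p = 0.769), and this interval was the widest among the 9 genes. Leaving out RVC library 2 or fresh frozen library 1 turned the difference to 0.17 or 0.16.

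Sgk1 has several annotated starts, and the promoter windows show where the hormone receptor's DNA motif lies relative to that of its leading transcript. Transcript ENSMUST00000020145, which starts at chr10:21870565, held 82.1% of the gene's level, at 149.8, 109.3, 202.5 and 130.2 FPKM in RVC 1, RVC 2, fresh frozen 1 and fresh frozen 2. Its share was lowest in RVC library 1, at 71.8%, and was 82.2%, 87.9% and 87.3% in the others. ENSMUST00000092673, whose start lies 776 bases upstream, held 0.361%, 0.166%, 0.274% and 0.450% of the level (named after its values were seen). The 250 bases before each start, from the RefSeq promoter table of GRCm38.p6 and placed by an exact match in GRCm39, are printed with capitals marking the hormone response element (AGAACA, any 3 bases, TGTTCT), the GC box GGGCGG or its reverse complement CCGCCC, and the TATA box TATAAA:
Sgk1 upstream start, chr10:21869539-21869788, plus strand: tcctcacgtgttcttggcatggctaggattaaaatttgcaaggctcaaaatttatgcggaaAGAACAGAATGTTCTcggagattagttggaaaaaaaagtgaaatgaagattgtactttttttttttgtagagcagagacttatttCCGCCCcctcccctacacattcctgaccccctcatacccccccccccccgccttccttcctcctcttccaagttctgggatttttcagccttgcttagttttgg
Sgk1 main start, chr10:21870315-21870564, plus strand: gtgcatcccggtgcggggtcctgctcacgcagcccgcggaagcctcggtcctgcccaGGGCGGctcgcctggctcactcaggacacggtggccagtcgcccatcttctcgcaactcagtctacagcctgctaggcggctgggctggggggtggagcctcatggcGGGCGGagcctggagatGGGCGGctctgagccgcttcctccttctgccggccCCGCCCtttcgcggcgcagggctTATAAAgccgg

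The upstream window held 1 complete response element, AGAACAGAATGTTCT, at chr10:21869600-21869614, at positions -189 to -175 from the upstream start and 965 to 951 bases before the main start. The main window held none, but carried 4 GC boxes and a TATA box at positions -11 to -6, with a G+C content of 70.4% against 44.8% upstream. The element is rare at this length: 3 of 32851 promoter windows of the same 250 bases, or 0.00913%, held it on either strand, those of Sgk1, Acnat2 and Gm35041. The shorter motifs were also counted on either strand. The half-site TGTTCT, which is contained in the element, occurred in 16.1% of windows, the GC box in 32.7% and the TATA box in 12.4%. Windows matched 5 of the 9 genes, 10 windows in all (6 of Sgk1, and 1 each of Atp1b1, Nr3c2, Scnn1b and Scnn1g). Of these 10 windows, 6 held a GC box, 3 a half-site, 2 a TATA box and 1 the full element. A match is a description of letters and not of receptor binding.

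Whether other corticosteroid target genes shared the pattern of Sgk1 over the libraries was not tested, as 4 libraries are too few. Of the 12 tested for a group difference, 4 were higher in library 1 than in library 2 of both groups, as Sgk1 was. The share of all genes that did so was not counted, and the library numbers do not link the groups. No shared pattern is read from that count. Of 13 listed, 12 were tested and none passed the adjusted threshold. At an unadjusted p under 0.05, which 18.4% of all genes had, 2 were higher and none lower with RVC, and the median log2 difference was 0.15 beside 0.007 for all genes. The metallothioneins Mt1 and Mt2, which bind metals, were highest in fresh frozen library 1, where Mt1 reached 400 FPKM against 207 to 243 FPKM elsewhere and Mt2 reached 261 FPKM against 81.4 to 136 FPKM. The cell cycle inhibitor Cdkn1a was at 158 and 131 FPKM with RVC and 125 and 110 FPKM in fresh frozen tissue. Edn1, the precursor gene of the vasoconstrictor endothelin, was at 13.7 and 22.2 FPKM with RVC and 10.5 and 7.66 FPKM in fresh frozen tissue (log2 difference 0.88, limma adjusted p = 0.149). The glucocorticoid-induced gene Tsc22d3, chosen after its values were seen, was at 37.9 and 44.7 FPKM with RVC and 40.0 and 31.3 FPKM in fresh frozen tissue, so RVC library 2, low for Sgk1, was its highest.

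Nedd4l (ENSMUSG00000024589, chr18:65020776-65350899, plus strand), the ligase that marks ENaC for removal and is held back by Sgk1, was measured at 45.2 and 37.9 FPKM with RVC and 40.3 and 40.2 FPKM in fresh frozen tissue. The RVC libraries lay on either side of the fresh frozen ones. The mean was 40.9 ± 3.07 FPKM (SD, n = 4) and the log2 difference 0.04 (95% interval -0.24 to 0.32, limma adjusted p = 0.881). Its level was 0.852, 0.640, 0.686 and 0.661 times that of its relative Nedd4 in RVC 1, RVC 2, fresh frozen 1 and fresh frozen 2, a pair chosen after the values were seen.

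Of the 9 genes Nedd4l was the most divided, with 35 transcripts of which 10 averaged at least 1 FPKM. The leading transcript, ENSMUST00000224347, held 28.2% and was at 14.3, 10.2, 8.79 and 12.8 FPKM in RVC 1, RVC 2, fresh frozen 1 and fresh frozen 2. The only other one to hold 10% was ENSMUST00000238122, a 373-nt transcript with no defined coding sequence, at 3.77, 3.12, 8.46 and 1.91 FPKM. Protein-coding transcripts made up 62.2% and 74.1% of the level with RVC and 60.5% and 74.5% in fresh frozen tissue, so libraries 1 of both groups held more noncoding signal than libraries 2. The excess in libraries 1 lay in transcripts with no defined coding sequence, at 28.8% and 31.4% in libraries 1 against 13.7% and 12.4% in libraries 2. Retained-intron transcripts ran the other way, at 8.92% and 8.10% in libraries 1 against 12.2% and 13.2% in libraries 2. Protein-coding Nedd4l alone was at 28.1, 28.1, 24.4 and 29.9 FPKM. Another transcript with no defined coding sequence, ENSMUST00000225057 (381 nt), was named after its values were seen. It was at 4.65 and 0.081 FPKM with RVC and 2.46 and 2.33 FPKM in fresh frozen tissue. Values of such short transcripts are unstable, and the library numbers do not link the groups.

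Among 19 other genes of the Nedd4 family and the Sgk1 kinase route, all were tested and none passed the adjusted threshold. At an unadjusted p under 0.05, which 18.4% of all genes had in either direction, 1 was higher and 1 lower. The median log2 difference was -0.027, beside 0.007 for all genes. The phosphoprotein-binding adaptors Ywhae, at 105 to 115 FPKM, and Ywhab, at 66.0 to 73.0 FPKM, and the ligase adaptor Ndfip2, at 89.6 to 100.1 FPKM, were the most abundant and each varied little. The ligase Wwp2 was at 68.2 and 62.6 FPKM with RVC and 46.7 and 41.9 FPKM in fresh frozen tissue (log2 difference 0.55, limma adjusted p = 0.129).

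ENaC is built from 1 alpha, 1 beta and 1 gamma subunit, and Scnn1a encodes alpha, which can form a pore without the others. Scnn1a (ENSMUSG00000030340, chr6:125297622-125321906, plus strand) was measured at 94.2 and 68.4 FPKM with RVC and 61.1 and 65.5 FPKM in fresh frozen tissue. RVC library 1 stood above the other 3, which lay within 61.1 to 68.4 FPKM, and the groups did not overlap. The RVC mean was 81.3 ± 18.2 FPKM and the fresh frozen mean 63.3 ± 3.05 FPKM (SD, n = 2 each). The log2 difference was 0.34 (SE 0.16, 95% interval -0.035 to 0.71), with a limma adjusted p of 0.300. Without RVC library 1 the difference was 0.11. One transcript, ENSMUST00000081440, held 89.8% of Scnn1a, at 85.0 and 62.5 FPKM with RVC and 54.6 and 57.5 FPKM in fresh frozen tissue.

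Scnn1b, encoding beta (ENSMUSG00000030873, chr7:121464261-121517737, plus strand), was measured at 13.9 and 10.2 FPKM with RVC and 9.93 and 9.46 FPKM in fresh frozen tissue. RVC library 1 was again the highest and the groups did not overlap, though RVC library 2 and fresh frozen library 1 lay close together. The mean was 10.8 ± 2.03 FPKM (SD, n = 4) and the log2 difference 0.27 (95% interval -0.098 to 0.64, limma adjusted p = 0.381). Without RVC library 1 it was 0.06. Scnn1g, encoding gamma (ENSMUSG00000000216, chr7:121333702-121367698, plus strand), was measured at 10.1 and 9.07 FPKM with RVC and 9.78 and 9.31 FPKM in fresh frozen tissue. These groups overlapped, and the mean of 9.57 ± 0.476 FPKM (SD, n = 4) was the steadiest of the 3 subunits. Its log2 difference was 0.007 (95% interval -0.27 to 0.29, limma adjusted p = 0.981).

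Scnn1g and Scnn1b are neighbours on 1 strand, with 96562 bases between the end of the first and the start of the second. Scnn1g is listed with 1 transcript, ENSMUST00000000221, and ENSMUST00000033161 held 95.5% of Scnn1b. The annotated starts of these transcripts are used here, and start use itself was not measured. The neighbours are shown because their mean levels were close, a choice made after the values were seen. Shared control of these genes was not tested. The 250 bases before the annotated starts are printed, from the same RefSeq table and with GC boxes in capitals:
Scnn1g, chr7:121333452-121333701, plus strand: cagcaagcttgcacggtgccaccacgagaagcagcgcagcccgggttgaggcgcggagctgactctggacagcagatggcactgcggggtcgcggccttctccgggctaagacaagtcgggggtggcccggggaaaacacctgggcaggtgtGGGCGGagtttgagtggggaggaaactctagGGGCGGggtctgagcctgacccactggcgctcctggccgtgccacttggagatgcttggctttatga
Scnn1b, chr7:121464011-121464260, plus strand: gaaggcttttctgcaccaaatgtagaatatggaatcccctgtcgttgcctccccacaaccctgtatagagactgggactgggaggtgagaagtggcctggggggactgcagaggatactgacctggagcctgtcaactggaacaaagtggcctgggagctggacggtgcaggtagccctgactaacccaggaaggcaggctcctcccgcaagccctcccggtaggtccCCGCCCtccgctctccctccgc

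The Scnn1g window held 2 GC boxes and 16 CG dinucleotides at a G+C content of 65.2%, and the Scnn1b window 1 GC box and 7 CG dinucleotides at 60.8%. Neither window held the response element, its half-site or the TATA box.

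RNA of the alpha subunit exceeded that of the others in every library, and protein was not measured. Scnn1a was 6.80, 6.73, 6.16 and 6.92 times as high as Scnn1b in RVC 1, RVC 2, fresh frozen 1 and fresh frozen 2 (log2 ratio 2.73 ± 0.075, SD, n = 4), and the groups overlapped. Against Scnn1g it was 9.29 and 7.53 times as high with RVC and 6.25 and 7.03 times in fresh frozen tissue (log2 ratio 2.90 ± 0.24, SD, n = 4), without overlap. Scnn1b exceeded Scnn1g by 1.37, 1.12, 1.01 and 1.02 times in the same order of libraries (log2 ratio 0.16 ± 0.20, SD, n = 4). The Scnn1b to Scnn1g ratio was thus near 1 in the fresh frozen libraries and highest in RVC library 1. Such ratios do not depend on scaling between libraries, and with 2 libraries a group the smallest p of an exact permutation test is 0.33. Relatives of ENaC were scarce: none of Asic1 to Asic5, which encode acid-sensing channels, averaged 1 FPKM, the highest being Asic1 at 0.895 FPKM, then Asic2 at 0.428 FPKM and Asic3 at 0.204 FPKM.

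**Figure D2:**
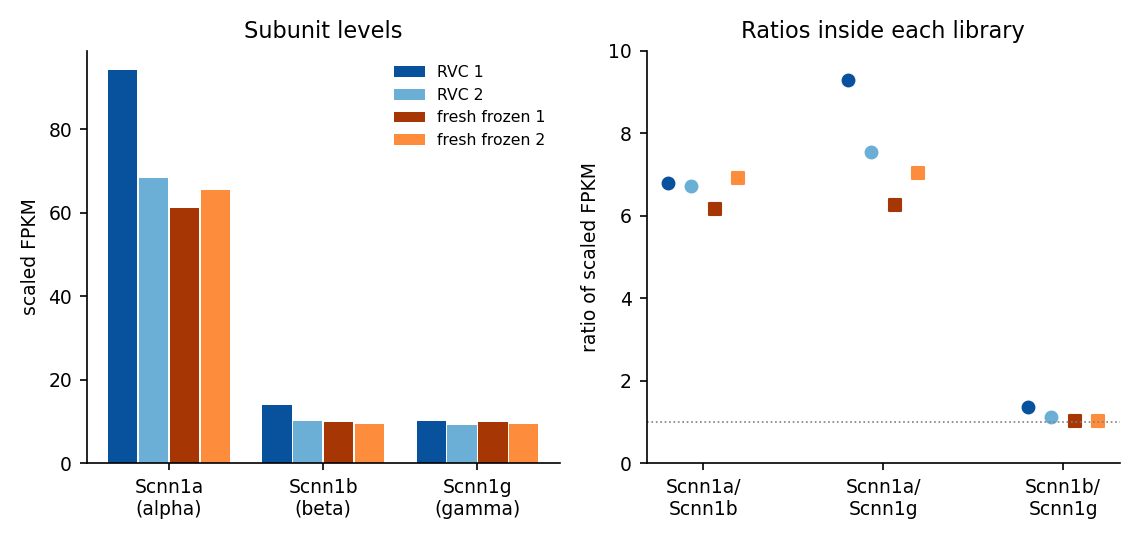
ENaC subunit levels in scaled FPKM and the ratios between subunits in each library, levels as bars from 0 and ratios as points, with 1 colour per library (RVC blue, fresh frozen orange). Scnn1a lies at 61.1 to 94.2 FPKM, far above Scnn1b and Scnn1g, and RVC library 1 is the highest for Scnn1a and Scnn1b.

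Prss8 encodes prostasin, a membrane-anchored serine protease that promotes cleavage and opening of ENaC. Prss8 (ENSMUSG00000030800, chr7:127524888-127529276, minus strand) was measured at 13.05 and 10.1 FPKM with RVC and 12.7 and 9.79 FPKM in fresh frozen tissue. The groups overlapped, and the libraries of each group differed by more than the group means did. The mean was 11.4 ± 1.71 FPKM (SD, n = 4) and the log2 difference 0.04 (95% interval -0.36 to 0.43, limma adjusted p = 0.926). ENSMUST00000032988 held 95.4% of it.

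Other channel-cleaving proteases and their inhibitors included far more abundant genes. Of 9 listed, 8 were tested and none passed the adjusted threshold. All 8 had a positive log2 difference, against 51% of all genes, with a median of 0.39 beside 0.007 for all genes, and 5 had an unadjusted p under 0.05, against 18.4% of all genes. Spint2, an inhibitor of prostasin-like proteases, was at 535 and 531 FPKM with RVC and 410 and 388 FPKM in fresh frozen tissue (log2 difference 0.42, limma adjusted p = 0.163). The groups stood apart by more than the spread inside either. The protease Prss30 was at 218 and 242 FPKM with RVC and 172 and 140 FPKM in fresh frozen tissue (log2 difference 0.56, limma adjusted p = 0.138), also without overlap. Tmprss2, another membrane protease, was at 139 to 153 FPKM with overlapping groups (log2 difference 0.04).

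Atp1b1 encodes the beta subunit that brings the sodium pump to the basolateral membrane. Atp1b1 (ENSMUSG00000026576, chr1:164264678-164285924, minus strand) was measured at 847 and 734 FPKM with RVC and 842 and 799 FPKM in fresh frozen tissue. The groups overlapped, and the lowest library was RVC library 2. The mean of 805.6 ± 52.0 FPKM (SD, n = 4) was above that of 99.5% of the genes tested, and the log2 difference was -0.06 (95% interval -0.39 to 0.27, limma adjusted p = 0.852). The leading transcript ENSMUST00000027863 held 94.1% of the level. The remaining Atp1b1 transcripts came to 63.8 and 55.6 FPKM with RVC and 37.2 and 33.6 FPKM in fresh frozen tissue. One of them, ENSMUST00000193367, named after its values were seen, was at 30.1 and 28.5 FPKM against 14.7 and 9.86 FPKM (log2 difference 1.21, limma adjusted p = 0.200).

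Among 13 other pump genes, 9 were tested and none passed the adjusted threshold. A positive log2 difference was seen for 8 of these (51% of all genes had one), and the median was 0.30, beside 0.007 for all genes. At an unadjusted p under 0.05, which 18.4% of all genes had in either direction, 2 were higher and 1 lower. Fxyd4, a pump regulator known as a corticosteroid-responsive gene of colon and kidney, was at 252, 232 and 213 FPKM in 3 libraries and at 92.8 FPKM in fresh frozen library 2 (log2 difference 0.77, limma adjusted p = 0.274). Fxyd3, a regulator of the same family, averaged 27.7 FPKM over the RVC libraries and was at 33.8 and 34.4 FPKM in fresh frozen tissue, both above either RVC library. Fxyd1, best known from muscle, was at 17.4 and 21.0 FPKM with RVC and 12.5 and 8.07 FPKM in fresh frozen tissue (log2 difference 0.86, limma adjusted p = 0.134). Smooth muscle markers summed to 1196 and 1753 FPKM with RVC and to 737 and 804 FPKM in fresh frozen tissue. All 10 had a positive difference at an unadjusted p under 0.05, against 18.4% of all genes in either direction, and none passed the adjusted threshold (lowest limma adjusted p = 0.114). Their part in the Fxyd1 values was not tested.

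Ordered by mean level, the genes ran Atp1b1, Sgk1, Hsd11b2, Nr3c2, Scnn1a, Nedd4l, Prss8, Scnn1b and Scnn1g. Clear steps with no overlap in range separated Atp1b1 from Sgk1 (4.47 times), Sgk1 from Hsd11b2 (1.88 times), Scnn1a from Nedd4l (1.77 times) and Nedd4l from Prss8 (3.59 times). Hsd11b2 and Nr3c2 differed by 1.23 times with overlapping ranges, though in the same order in 4 of 4 libraries, and Nr3c2 and Scnn1a by 1.08 times with the order kept in 3 of 4. At the bottom, the mean of Prss8 was 1.05 times that of Scnn1b, with this order kept in 2 of 4 libraries. The mean of Scnn1b was 1.13 times that of Scnn1g, with overlapping ranges and the order kept in 4 of 4. For Hsd11b2 over Nr3c2 the log2 ratio inside a library was 0.30 ± 0.26 (SD, n = 4), never below 0.16. For Nr3c2 over Scnn1a (0.12 ± 0.15), Prss8 over Scnn1b (0.08 ± 0.19) and Scnn1b over Scnn1g (0.16 ± 0.20) the mean log2 ratio was smaller than its SD. When only protein-coding transcripts were summed, an alternative added after the data were seen, Scnn1a at 72.1 FPKM passed Nr3c2 at 67.1 FPKM. With the leading transcript alone, Nedd4l stood at 11.5 FPKM, next to Prss8 at 10.9 FPKM and far below Scnn1a at 64.9 FPKM, and Nr3c2 was at 42.8 FPKM, below Scnn1a.

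Between RVC and fresh frozen tissue, none of the 9 genes passed the limma test at an adjusted p under 0.05, where 5 of 13771 genes, or 0.0363%, did. None reached an unadjusted p under 0.05, against 18.4% of all genes tested. Adjusted p-values of the 9 ran from 0.288 to 0.988 (limma, Benjamini-Hochberg). Nr3c2, Scnn1a and Scnn1b were higher in both RVC libraries than in both fresh frozen ones, 3 of 9 where 26.5% of all genes were, and none was lower in both, where 26.6% of all genes were. A positive log2 difference was seen for 6 of 9, against 51% of all genes, and the median of the 9 was 0.04 beside 0.007 for all genes. These shares are read against that background and are not taken as a property of the set. A p above the threshold with 2 libraries a group does not show that the levels were equal: the intervals reach 0.71 for Scnn1a and -0.76 for Sgk1.

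**Figure D3:**
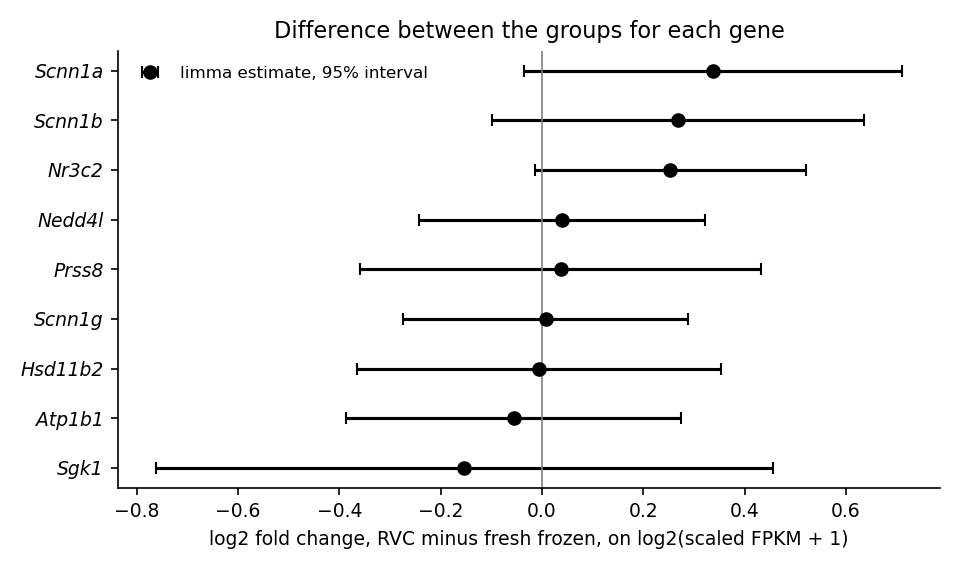
RVC minus fresh frozen difference of each gene on the log2(FPKM + 1) scale, with limma estimates as points and 95% intervals as bars. All 9 intervals cross 0, and that of Sgk1, from -0.76 to 0.46, is the widest.

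Surface colonocyte markers summed to 8364 and 7166 FPKM with RVC and to 6622 and 5982 FPKM in fresh frozen tissue, with no marker at 0. Their median log2 difference was 0.23, and 9 of 10 were positive, against 51% of all genes. At an unadjusted p under 0.05 2 of them were higher and none lower. Scnn1a was on this side, and so were other lists, with medians of 0.46 for plasma cell, 0.23 for fibroblast and 0.23 for enteric neuron markers. Goblet markers had a median of 0.014 and crypt markers one of -0.24. Pan-epithelial markers summed to 6456 and 6335 FPKM with RVC and to 6973 and 5323 FPKM in fresh frozen tissue. All 9 were positive, none at an unadjusted p under 0.05, with a median of 0.09. Endothelial markers summed to 32.2 and 30.8 FPKM with RVC and to 16.5 and 20.1 FPKM in fresh frozen tissue. All 9 had a positive difference at an unadjusted p under 0.05, where 18.4% of all genes had such a p in either direction, and none passed the adjusted threshold (lowest limma adjusted p = 0.129). The part of these cell types in the values of Scnn1a, Scnn1b and Nr3c2 was not tested. In bulk tissue, fewer cells of a type and less RNA per cell cannot be told apart.

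At the level of single transcripts, 35 of the 75 were abundant enough to test and none passed the adjusted threshold, where 1 of 24174 transcripts, or 0.00414%, did. At an unadjusted p under 0.05 there were 8 of 35, beside 15.5% of all transcripts tested: 3 of Nr3c2, 2 of Nedd4l, 2 of Atp1b1 and 1 of Sgk1. The Sgk1 retained-intron signal, which can come from unspliced RNA, was 31.3 and 13.5 FPKM with RVC and 20.3 and 13.7 FPKM in fresh frozen tissue. Transcript ENSMUST00000124350 of Sgk1, named after its values were seen, was at 24.6 FPKM in RVC library 1 against 8.08, 3.65 and 3.95 FPKM in RVC 2, fresh frozen 1 and fresh frozen 2. A gene on the opposite strand overlaps the span of 7 of the 9 genes, all but Scnn1g and Hsd11b2, and for 3 it is protein-coding: Cog7 at Scnn1b, Nme7 at Atp1b1 and Kat8 at Prss8. The use of strand in the estimates is not given in the sources used here, and without it reads of such pairs cannot be told apart.

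**Figure D4:**
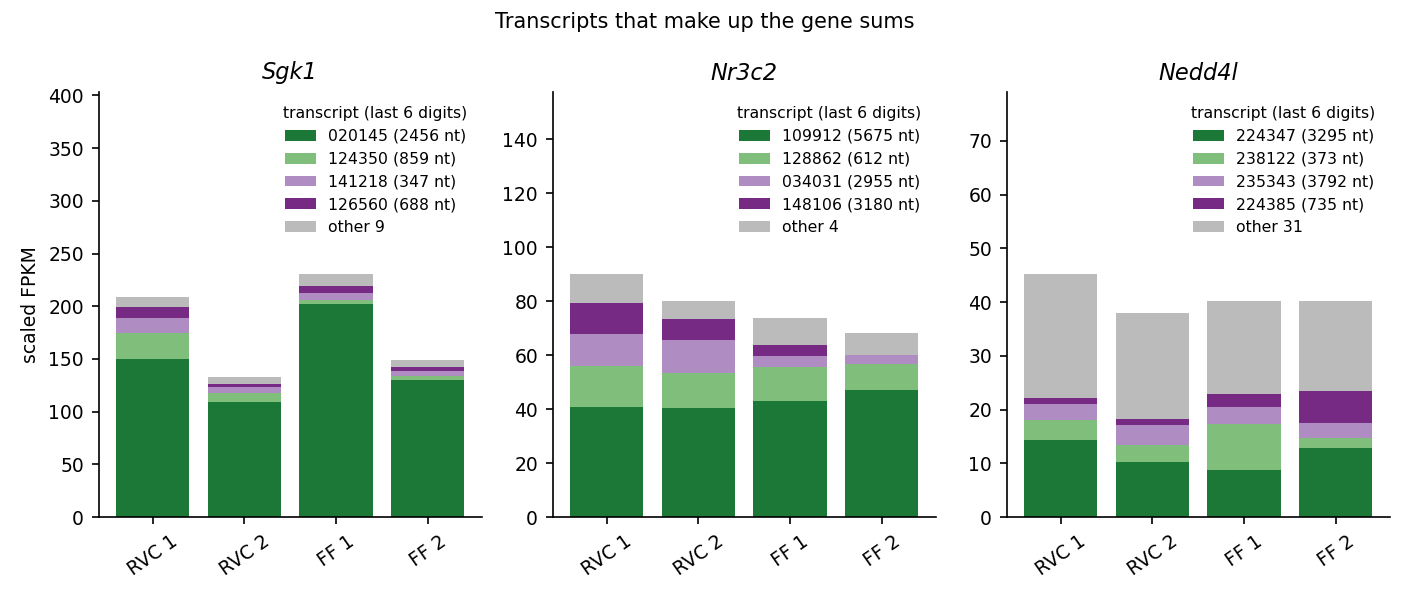
Transcripts that make up Sgk1, Nr3c2 and Nedd4l in each library, as stacked bars in scaled FPKM: the 4 most abundant transcripts, and all others in grey. The leading transcript holds 82.1% of Sgk1, 54.9% of Nr3c2 and 28.2% of Nedd4l, and the Nr3c2 excess in the RVC libraries lies above its leading transcript.

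ENaC is 1 of several sodium routes in the colon, and the electroneutral exchangers, which swap sodium for protons beside chloride exchange, were measured at similar or higher levels. Of 11 such genes, 10 were tested and none passed the adjusted threshold. With RVC 3 were higher and 2 lower at an unadjusted p under 0.05, which 18.4% of all genes had in either direction. The median log2 difference was 0.30, beside 0.007 for all genes. The chloride exchanger Slc26a3 was at 1253 and 1176 FPKM with RVC and 1172 and 852 FPKM in fresh frozen tissue. Slc9a3r1, an adaptor that anchors the exchangers, was at 228, 170, 178 and 128 FPKM in RVC 1, RVC 2, fresh frozen 1 and fresh frozen 2. Slc9a2, an apical sodium-proton exchanger, was at 102 and 93.5 FPKM with RVC and 72.9 and 78.7 FPKM in fresh frozen tissue, between 1.09 and 1.37 times the level of Scnn1a. Slc9a3, the other main apical exchanger, named after its values were seen, varied most, at 80.2 and 44.7 FPKM with RVC and 31.2 and 103.9 FPKM in fresh frozen tissue. It was 0.851, 0.653 and 0.510 times Scnn1a in the first 3 of these libraries and 1.59 times in fresh frozen library 2. Slc12a2, the basolateral cotransporter of chloride secretion, was at 19.6 and 19.6 FPKM with RVC and 33.2 and 43.5 FPKM in fresh frozen tissue (log2 difference -0.92, limma adjusted p = 0.112).

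Genes of potassium channels and pumps were measured beside the sodium routes. Of 10 potassium channel and pump genes, 6 were tested and none passed the adjusted threshold. None was higher and 1 lower at an unadjusted p under 0.05, which 18.4% of all genes had in either direction. The median log2 difference was -0.045, beside 0.007 for all genes. Atp12a, the colonic proton-potassium pump that recovers potassium, was at 491 and 321 FPKM with RVC and 487 and 272 FPKM in fresh frozen tissue, and the groups overlapped. Kcne3, a regulatory channel subunit, was at 56.2 and 51.5 FPKM with RVC and 96.6 and 87.8 FPKM in fresh frozen tissue (log2 difference -0.77, limma adjusted p = 0.112). The potassium channel Kcnk5 was at 42.9 to 53.8 FPKM.

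Among genes of the glucocorticoid receptor axis, 7 of 9 were tested and none passed the adjusted threshold. None was higher and 1 lower at an unadjusted p under 0.05, which 18.4% of all genes had in either direction. The median log2 difference was -0.12, beside 0.007 for all genes. The chaperones that hold steroid receptors ready to bind hormone were the most abundant. Hsp90ab1 was at 132 and 154 FPKM with RVC and 158 and 165 FPKM in fresh frozen tissue. Hsp90aa1 was at 47.1 and 46.6 FPKM against 73.6 and 57.7 FPKM (log2 difference -0.47, limma adjusted p = 0.165), and the cochaperone Fkbp4 at 37.2 and 42.2 FPKM against 54.3 and 43.0 FPKM. Over all 8 lists, 70 of 88 pathway genes were tested and none passed the adjusted threshold, with a lowest limma adjusted p of 0.112. Of the 70, 13 were higher and 6 lower at an unadjusted p under 0.05, which 18.4% of all genes had in either direction. Their median log2 difference was 0.15, beside 0.007 for all genes.

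**Figure D5:**
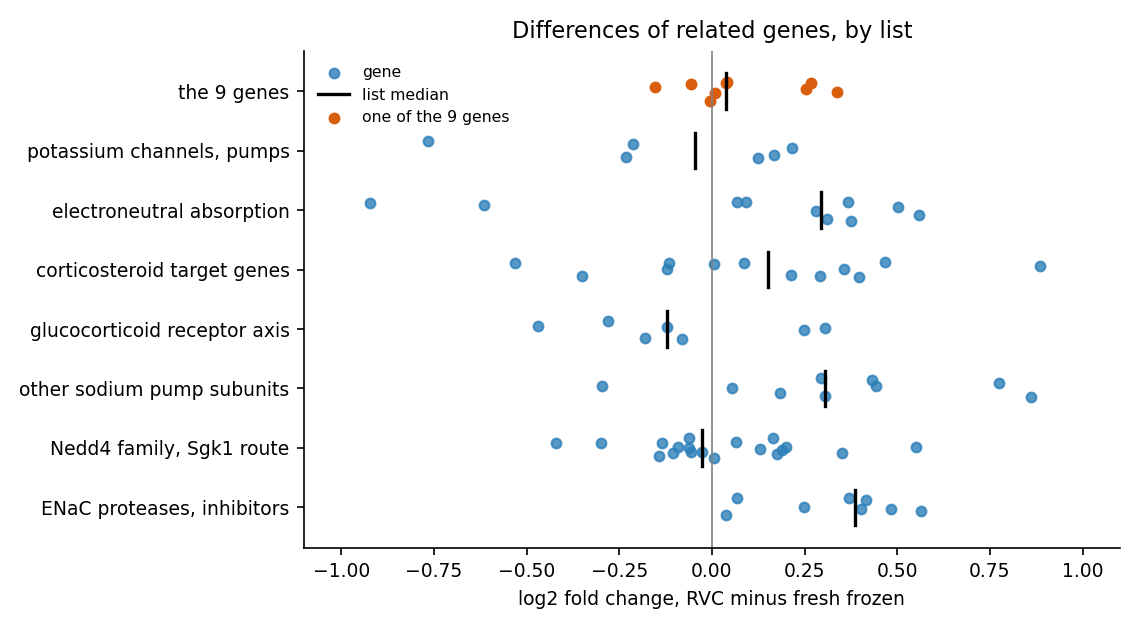
RVC minus fresh frozen differences on the log2(FPKM + 1) scale for the tested genes of each pathway list, 1 blue point per gene with a bar at the list's median, and the 9 genes in orange. Of the 7 lists shown, the proteases and inhibitors have the highest median, 0.39, and the glucocorticoid receptor axis the lowest, -0.12.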

How the data were processed

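The authors deposited 1 transcript table per library. Per the submitters' processing notes, reads were aligned to GRCm39 with TopHat2 2.1.1 and transcript levels were estimated with Cufflinks 2.2.1. The annotation release and any strand setting are not given in the sources used here. Per the file headers, the deposited values are FPKM with lower and upper bounds, coverage (read depth along the transcript) and transcript length in nucleotides. FPKM is a relative measure, so very abundant RNAs push down the values of the rest of their library, and short transcripts have unstable values. A status other than OK marked 6 to 8 transcripts a library, none of them in the 9 genes.

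Gene FPKM was summed over transcripts and scaled by median ratio (factors 0.992 to 1.01). Transcripts took the same factors. Genes or transcripts averaging at least 1 scaled FPKM, with a length of at least 300 nt and status OK throughout were tested. These were 13771 genes and 24174 transcripts. Groups were compared on log2(scaled FPKM + 1), a pseudocount of 1, with limma 3.58.1 in R 4.3.3 (eBayes with trend, two-sided, no covariate), with Benjamini-Hochberg adjustment and a threshold of 0.05. The script was tested on simulated data. Relative depth came from the ratio of deposited coverage to FPKM; absolute depth is unknown, since exact fragment counts cannot be had from these estimates, so no counting interval is given.

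Groups came from the sample titles. The members and lists were chosen with earlier results of these data known. From each pathway list were named the 3 genes of highest mean, any gene with an adjusted p under 0.05 and that of the smallest p, and of each member the transcripts holding at least 10%. A gene that this rule names is not reported here. With 4 libraries no gene was named for a like pattern. Scnn1d, Usp10 and Tubb3 were on the lists and are not analysed here; Nherf1 and Nherf2 were listed by these newer symbols too and entered once, as Slc9a3r1 and Slc9a3r2. Lists of goblet, crypt, fibroblast, plasma cell and enteric neuron markers were also measured: their median log2 differences were 0.014, -0.24, 0.23, 0.46 and 0.23. Transcript types came from GENCODE vM39, promoter windows from RefSeq (GRCm38.p6), placed by exact match in GRCm39. Python 3.11.15, pandas 2.3.3 and matplotlib 3.10.9 were used. Alternatives varied the pseudocount, scaling, filters, trend, gene summary, replicate block and libraries; protein-coding transcripts only and the crossed pairing were chosen after seeing the data.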

Additional observations from a re-analysis of the deposited data

How the results depend on the processing

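None of the 9 genes passed an adjusted p under 0.05 (limma, Benjamini-Hochberg) under any alternative tried. The number of all genes passing, 5, was 6 with a pseudocount of 0.1, 0 without the filter on low values, with no trend or when transcripts under 300 nt were not summed, 2 with a mean of at least 5 FPKM or with the most abundant transcript alone, and 8 to 40 when 1 library was left out (29 without RVC library 1, 8 without RVC library 2, 40 and 22 without fresh frozen libraries 1 and 2). At an unadjusted p under 0.05, those counts of 0 stood at 3531, 2461 and 2577 genes. The number of transcripts passing, 1, was 0 without the filter (9167 at an unadjusted p under 0.05), 6 at a mean of at least 5 FPKM, 7 with no length minimum and 0 without any 1 library. The cause of these shifts was not tested. The labels' sample numbers say nothing of a shared animal or day: with them as a replicate block 112 genes passed and none of the 9. Same-numbered deviations had a correlation of -0.13 across genes over 2 pairs, and with the numbers crossed 12 genes passed. When the leading transcript replaced the gene sum, the log2 difference of Nr3c2 was -0.15 and that of Prss8 was -0.031, and the log2 ratio of Scnn1a to Scnn1b was 2.64. Leaving out 1 library at a time, the log2 difference ran from -0.065 to 0.078 for Scnn1g, -0.084 to 0.16 for Nedd4l, -0.14 to 0.21 for Prss8, -0.20 to 0.19 for Hsd11b2, -0.48 to 0.17 for Sgk1 and -0.16 to 0.046 for Atp1b1, so these directions are not settled by these libraries. The difference stayed positive for Scnn1a (0.11 to 0.57), Scnn1b (0.06 to 0.47) and Nr3c2 (0.17 to 0.34). That follows from both RVC libraries lying above both fresh frozen ones, as in 26.5% of all genes, and adds no support. With 2 libraries a group, and a relative depth only, small differences cannot be resolved.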
